A study of Mus musculus with 282 samples.

Results

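Genes of leptin and insulin signalling were followed in the hypothalamus of mice fed a high fat diet, 9 of the 14079 gene rows and 25 of the 51024 transcript rows of the deposited expression table. They were chosen by name, as all rows that the merged assembly assigns to the receptors Lepr, Insr and Igf1r, the adaptors Irs1, Irs2 and Sh2b1, the transcription factors Stat3 and Foxo1, and the phosphatase Ptpn1. Each name led to 1 gene locus, and no locus carried a second gene name.

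Leptin is released by fat cells in proportion to fat stores and acts on hypothalamic neurons to reduce food intake. Its receptor has no kinase of its own and works through the kinase JAK2 and the transcription factor STAT3, whereas the insulin and IGF1 receptors are tyrosine kinases that phosphorylate IRS proteins, activate PI3K and AKT, and thereby keep FOXO1 out of the nucleus. PTP1B, the product of Ptpn1, removes phosphates from both JAK2 and the insulin receptor, and SH2B1 is an adaptor that enhances signalling from both.

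RNA was taken from the whole hypothalamus of 282 male mice of the Hybrid Mouse Diversity Panel, all on a high fat diet, with 1 library per mouse and no mouse on another diet. The labels give 281 mice 1 of 99 strains, namely 43 BXD, 18 AXB/BXA, 7 CXB and 6 BXH recombinant inbred strains and 25 classical inbred strains. Of these, 85 strains had 3 mice, 12 had 2 and 2 had 1, and no transgene or mutant allele was named. The labels give no age, and all cell types of the hypothalamus were pooled in each library, so fewer cells of a type and less RNA per cell cannot be told apart.

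Values are gene or transcript levels in FPKM, fragments scaled to transcript length and to the size of the library. Of the 9 marker genes listed for the hypothalamus, 8 had a row, and their summed level ranged from 847.2 to 9255 FPKM over mice. The summed level of markers of neighbouring tissue ranged from 7.25 to 2101 FPKM for 5 of the 6 choroid plexus genes, from 0.589 to 16462 FPKM for 6 of the 7 anterior pituitary genes, and from 17.4 to 381 FPKM for all 5 thalamus genes. The 6 endothelial genes summed to between 62.3 and 157 FPKM, and of the 4 meningeal genes only Dcn had a row, at 3.47 to 22.9 FPKM. Every deposited row was above 0 FPKM in at least 100 mice and above 1 FPKM in at least 50. No marker with a row could therefore be at 0 in every mouse, and shares of all genes refer to rows within this filter. Mouse OB-547 (BXD-12/TyJ) and mouse OB-422 (CXB-3/ByJ) stood apart from the rest, with a Pearson r of 0.839 and 0.930 with the median profile of all genes against at least 0.971 in every other mouse. Their gene FPKM summed to 792801 and 463433, against a median of 337467 over mice, so their values are not on quite the same scale. Between them these mice held the lowest value of 7 of the 9 genes, so results that rest on them are given with and without them.

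Sequences are shown for the coding pieces that set the annotated forms of these genes apart. Deposited transcripts of Insr, Sh2b1 and Stat3 use these pieces differently, whereas Lepr has a single deposited transcript. The sequences were read from the GENCODE M21 transcripts on GRCm38, which has the mm10 coordinates of the files, and are the reference sequence in the direction of transcription. The first is the cassette exon of Insr that distinguishes the long B form of the insulin receptor from the A form, at chr8:3181702-3181737 on the minus strand. The next pair decides between the 4 forms of Sh2b1, called alpha, beta, gamma and delta, whose annotated coding sequences hold 756, 670, 682 and 724 codons and differ in their carboxy-terminal ends. It consists of a 100-nt exon at chr7:126467950-126468049 and of a 53-nt extension of the exon before it at chr7:126468420-126468472, both on the minus strand.
Insr 36-nt exon: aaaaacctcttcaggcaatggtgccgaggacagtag
Sh2b1 100-nt exon: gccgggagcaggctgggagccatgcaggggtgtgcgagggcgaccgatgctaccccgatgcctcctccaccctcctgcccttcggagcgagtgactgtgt
Sh2b1 53-nt extension: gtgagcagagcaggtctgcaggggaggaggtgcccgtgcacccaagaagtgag

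In Stat3, 2 donor sites 3 bases apart add or leave out 1 codon shortly before the codon of the tyrosine that Janus kinases phosphorylate. The exon end starts at chr11:100893074 with the added bases and at chr11:100893077 without them, on the minus strand, and is shown spliced to the first 27 bases of the next exon, with the 3 added bases in capitals. The last sequence holds the first 60 coding bases of the last exon of the long form of Lepr, at chr4:101814448-101814507 on the plus strand. This exon encodes most of the intracellular part that short forms of the leptin receptor lack and that carries the STAT3 docking site.
Stat3 with the added bases: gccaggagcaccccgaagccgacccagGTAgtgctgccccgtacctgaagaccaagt
Stat3 without them: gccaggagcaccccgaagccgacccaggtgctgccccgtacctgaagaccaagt
Lepr long-form last exon: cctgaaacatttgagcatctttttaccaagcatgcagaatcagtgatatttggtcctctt

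All 9 genes were measured in every mouse, at levels that spanned about an order of magnitude from Lepr to Stat3. Lepr, the leptin receptor (XLOC_024575, chr4:101717404-101819181), was the lowest, with 1.64 ± 0.496 FPKM (SD, n = 282 mice). Its level ran from 0.427 in mouse OB-547 over a median of 1.60 to 3.87 FPKM in a BXD74 mouse, and it was above 1 FPKM in 266 mice. Its mean was above that of 13.5% of all genes in the table. Insr, the insulin receptor (XLOC_035091, chr8:3113698-3279617), had a level of 9.50 ± 0.753 FPKM, from 6.06 over a median of 9.53 to 11.4 FPKM. Its coefficient of variation of 7.93% was among the lowest, with only 4.97% of all genes below it and a median of 17.3% over all genes. Igf1r, the IGF1 receptor (XLOC_031691, chr7:67952859-68226780), had 7.40 ± 1.52 FPKM, with a lowest value of 0.974 in mouse OB-422, a median of 7.34 and a highest value of 11.4 in a 129X1/SvJ mouse. Without both outlying mice the lowest value of Igf1r was 3.24 FPKM.

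Among the adaptors, Irs2 (XLOC_035135, chr8:10984414-11034868), which couples the insulin receptor to PI3K, was at 14.2 ± 2.47 FPKM, from 1.52 in mouse OB-547 over a median of 14.4 to 20.1 FPKM. Irs1 (XLOC_001369, chr1:82232986-82291416), its homologue, was at 3.03 ± 0.529 FPKM, from 0.639 in the same mouse over a median of 2.99 to 4.54 FPKM. Irs2 therefore exceeded Irs1 on the same scale of FPKM per length in these libraries. The exons of Irs1 overlap those of an antisense gene, Gm9747, over 2822 nt, those of Irs2 overlap 9530052E02Rik over 162 nt and those of Foxo1 overlap Gm20402 over 674 nt, and the libraries were not strand-specific, so reads of each such pair cannot be told apart. Sh2b1 (XLOC_033724, chr7:126466930-126475377) had 21.6 ± 1.83 FPKM, from 16.1 over a median of 21.6 to 27.9 FPKM. It varied nearly as little as Insr, with a coefficient of variation of 8.50% and 6.75% of all genes below it.

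Stat3 (XLOC_006446, chr11:100886810-100939540) was at 22.0 ± 2.87 FPKM, from 11.4 in mouse OB-547 over a median of 21.6 to 31.2 FPKM in a BXD74 mouse. Foxo1 (XLOC_022333, chr3:52268337-52350109) was at 4.74 ± 0.611 FPKM, from 3.17 over a median of 4.75 to 7.04 FPKM, with the lowest mouse in BXD61 and the highest in BXD68. Ptpn1 (XLOC_020258, chr2:167932327-167979385) was at 8.82 ± 1.46 FPKM, from 5.84 in a BALB/cJ mouse over a median of 8.64 to 14.6 FPKM in a BXD70 mouse. In order of level, Stat3 exceeded Sh2b1 in only 149 of 282 mice, a difference of 0.370 ± 3.46 FPKM (SD) that was within the spread, and Insr exceeded Ptpn1 by 0.679 ± 1.61 FPKM, also within 1 SD. Ptpn1 exceeded Igf1r by 1.42 ± 1.75 FPKM, again within 1 SD. The other steps were wider than the SD of the difference, and Sh2b1 was above Irs2 in all 282 mice.

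**Figure D1:**
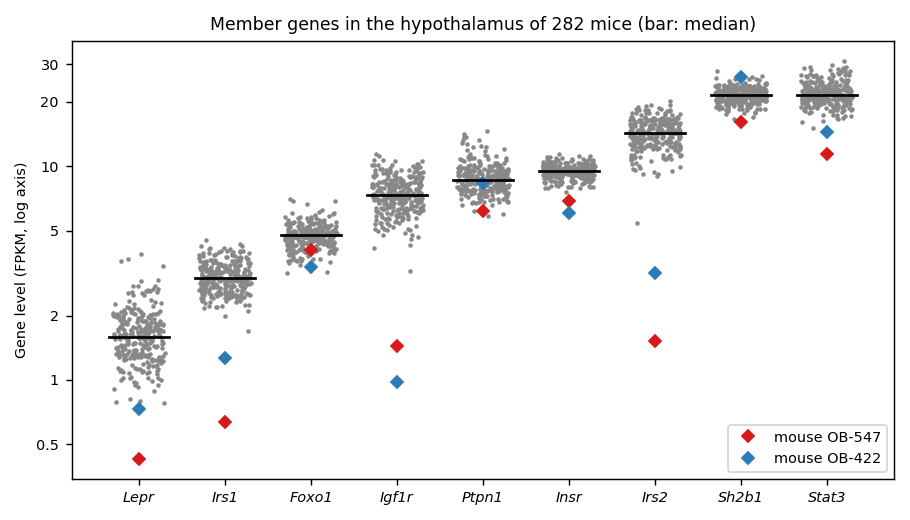
Gene level in FPKM (log axis) of the 9 genes, ordered by mean, with 1 grey point per mouse and a black bar at the median of 282 mice. Mice OB-547 (red) and OB-422 (blue) lie far below the other mice for Irs2 and Igf1r, whereas OB-422 is above the median for Sh2b1.

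To ask how much of this variation follows the strain, the levels were compared among the 99 strains as log2(FPKM + 1) with limma's moderated F test and Benjamini-Hochberg adjustment over all genes. All 9 genes passed an adjusted p of 0.05, as did 75.4% of all genes tested. How far levels follow the strain is expressed as the strain share (an intraclass correlation), the part of the variance that lies between strains, which is 0 or below where strains explain nothing. Its median over the 9 genes was 0.185, with 6 of 9 below the median of 0.222 over all genes. Stat3 had the largest share (0.291, adjusted p = 9.25e-06), followed by Foxo1 (0.253, adjusted p = 0.000114) and Igf1r (0.237, adjusted p = 0.000195). Sh2b1 (0.195, adjusted p = 0.00291), Irs2 (0.185, adjusted p = 0.00268), Irs1 (0.185, adjusted p = 0.00308) and Lepr (0.175, adjusted p = 0.00428) were intermediate. Insr (0.152, adjusted p = 0.0188) and Ptpn1 (0.124, adjusted p = 0.0319) had the smallest shares.

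Without mice OB-547 and OB-422, all 9 genes again passed, as did 83.9% of all genes. The shares of Igf1r and Irs2 were then 0.357 and 0.345, the 2 largest of the 9. The calls of Insr and Ptpn1 were the least stable. With library size and unique mapping rate added as covariates, the adjusted p was 0.104 for Insr and 0.0703 for Ptpn1, and with the levels of choroid plexus, pituitary and thalamus markers as covariates it was 0.134 for Ptpn1. Leaving out 1 mouse in each strain lowered the number of genes past the threshold to between 0 and 6, with 0 by limma when the mouse listed second in each strain was dropped (adjusted p from 0.0601 for Foxo1 to 0.837 for Insr), where 45.6% of all genes still passed.

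The strains at the ends of each distribution are given as values only, since they were picked by their level. That choice also favours a lack of overlap between their mice, and the share of all genes with such a lack was not computed. For Lepr the highest mean was in KK/HlJ, an obese and diabetes-prone strain, with 2.60, 2.64 and 2.13 FPKM in its 3 mice. It was followed by C57L/J (3.43, 1.92 and 1.98 FPKM) and BXD74 (1.42, 3.87 and 2.00 FPKM), each drawn up by 1 mouse. The lowest was NZB/BlNJ, with 0.903, 1.10 and 0.784 FPKM, then BXD-36/TyJ (1.28, 1.02 and 0.796 FPKM) and BXD-12/TyJ, the strain of mouse OB-547 (1.71, 0.427 and 1.07 FPKM). The mice of the 3 lowest and 3 highest strains overlapped.

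Insr was lowest in 129X1/SvJ (7.97, 8.02 and 7.92 FPKM) and highest in SM/J (10.8, 10.7 and 10.99 FPKM), so that mice within either strain differed by far less than the strains did. CE/J and BXD-14/TyJ came next at the high end, with means of 10.5 and 10.4 FPKM. BXA-24/PgnJ and CXB-3/ByJ came next at the low end, with means of 8.47 and 8.50 FPKM. The mice of CXB-3/ByJ had 9.18, 10.3 and 6.06 FPKM, the lowest being mouse OB-422. For Insr, too, the mice of the 3 lowest and 3 highest strains overlapped. Igf1r was highest in AKR/J (10.6, 11.2 and 8.88 FPKM), 129X1/SvJ (11.4, 9.67 and 8.23 FPKM) and CE/J (9.73, 9.28 and 10.1 FPKM). It was lowest in CXB-3/ByJ (6.88, 6.09 and 0.974 FPKM), where mouse OB-422 sets the mean, in BXH-9/TyJ (5.02, 5.01 and 4.16 FPKM) and in AXB-15/PgnJ (6.17, 5.45 and 5.49 FPKM). The mice of these 3 low strains did not overlap those of the 3 high ones. The same was so for Irs2, Stat3, Sh2b1, Foxo1 and Ptpn1, the last with the smallest strain share.

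For Irs2, BXH-9/TyJ was again low (9.17, 9.43 and 10.3 FPKM), together with CXB-3/ByJ (13.8, 10.9 and 3.16 FPKM) and DBA/2J (11.1, 10.8 and 9.58 FPKM). BXA-4/PgnJ (18.4, 18.1 and 20.1 FPKM), CE/J (18.4, 18.3 and 18.5 FPKM) and AKR/J (19.3, 17.4 and 16.8 FPKM) were the highest, and no mouse of these strains overlapped the low ones. CE/J and AKR/J thus stood at the high end of both Igf1r and Irs2. Irs1 was highest in SM/J (3.95, 3.94 and 4.14 FPKM), followed by BXH-6/TyJ and SWR/J, both at a mean of 3.73 FPKM, and lowest in BXD-12/TyJ (3.10, 0.639 and 2.52 FPKM), BALB/cJ (2.53, 2.57 and 1.69 FPKM) and BXD-6/TyJ (2.69 and 2.202 FPKM). Sh2b1 was highest in BXD-11/TyJ (26.4 and 25.5 FPKM), BXD-32/TyJ and BXA-24/PgnJ, with means of 24.5 and 24.2 FPKM in the last 2, and lowest in AXB-6/PgnJ (18.6 and 18.9 FPKM), BXHA1 and BXD-12/TyJ, with means of 18.7 and 19.0 FPKM.

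Stat3 was highest in BXD-24/TyJ, with 28.9, 27.9 and 29.3 FPKM, then in BXHB2 (29.7, 24.2 and 28.5 FPKM) and BXD43 (28.8, 27.1 and 23.0 FPKM). Its lowest strains were BXD-6/TyJ (19.4 and 15.1 FPKM), CXB-13/HiAJ (16.2, 16.8 and 18.9 FPKM) and A/J (17.3, 16.7 and 18.7 FPKM), all of whose mice were below those of the high strains. Foxo1 was highest in LG/J (5.61, 6.01 and 4.87 FPKM), SM/J (5.38, 5.88 and 5.15 FPKM) and BXD51 (4.88, 6.63 and 4.89 FPKM). It was lowest in BXA-12/PgnJ (3.94 and 3.21 FPKM), BXD61 (3.97, 3.89 and 3.17 FPKM) and C3H/HeJ (3.88, 4.09 and 3.56 FPKM). SM/J was therefore among the 3 highest strains for Insr, Irs1 and Foxo1. Ptpn1 was highest in BXD70 (10.03, 11.4 and 14.6 FPKM), AXB-8/PgnJ (8.68 and 12.8 FPKM) and CXBH (12.1, 8.94 and 10.6 FPKM), whose mice differed widely within each strain, and lowest in CXB-12/HiAJ (6.88, 7.43 and 6.17 FPKM), BXD-12/TyJ and BXD-38/TyJ, with means of 6.90 and 7.20 FPKM.

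**Figure D2:**
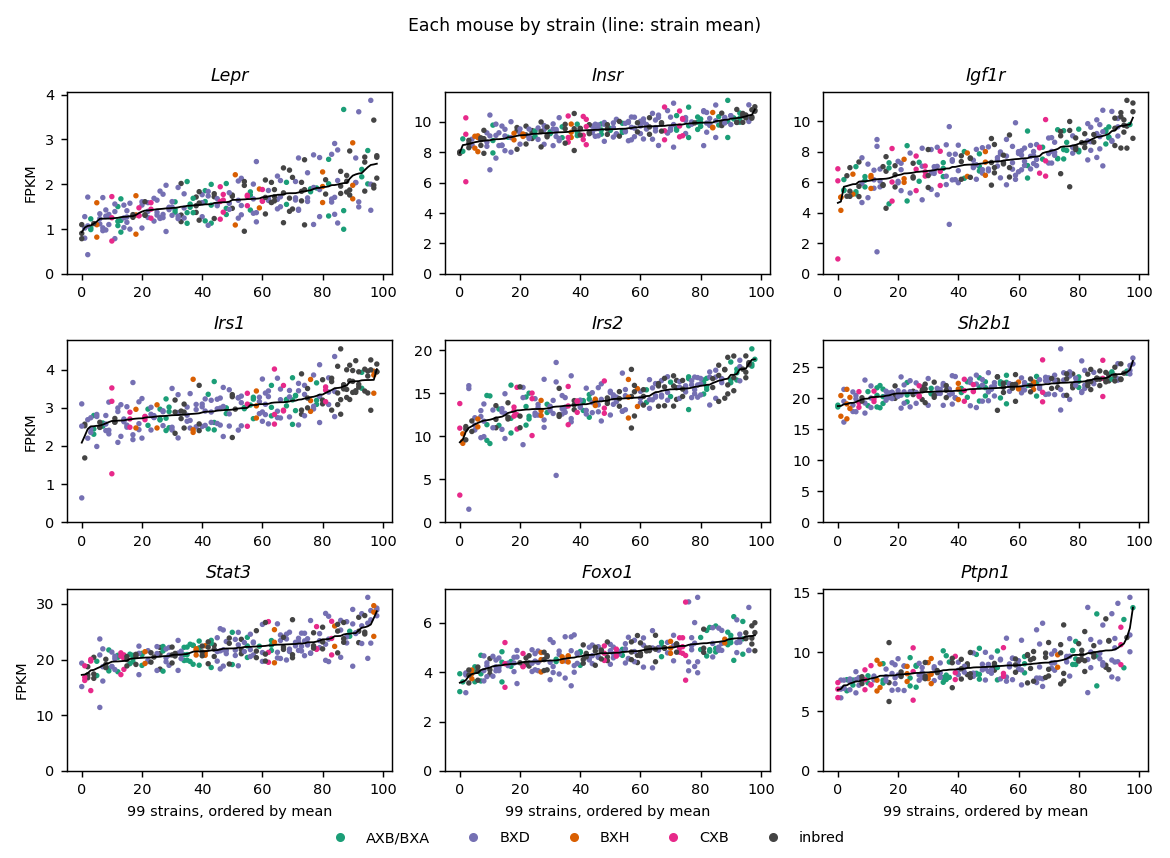
Level in FPKM of each gene in every mouse of known strain (points, coloured by strain set), with the 99 strains ordered along the x axis by their mean (line), separately for each gene. The line is nearly flat for Insr and Sh2b1 and rises from 9.30 to 18.9 FPKM for Irs2.

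The share of variance between strains was not alike in the 5 strain sets, given here without mice OB-547 and OB-422 and with no test of the difference. Within the 25 inbred strains (71 mice) the median share of the 9 genes was 0.461 against 0.306 over all genes, with 0.565 for Foxo1, 0.562 for Insr, 0.553 for Irs2 and 0.492 for Igf1r. Within the 43 BXD strains (125 mice) the median was 0.0985 against 0.200 over all genes, and the highest was 0.215 for Stat3. In the 18 AXB/BXA strains (47 mice) the 9 genes had a median of 0.258 against 0.246, with 0.544 for Foxo1 and 0.0869 for Stat3. The BXH and CXB sets, with 16 and 20 mice, gave shares between -0.235 and 0.765 and between -0.413 and 0.438. Among the inbred strains, Sh2b1 and Ptpn1 were below the median of all genes, with shares of 0.243 and -0.0321.

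The strains DBA/2J, A/J, BALB/cJ, C3H/HeJ and KK/HlJ were each compared with C57BL/6J, with 3 mice per strain, in limma's fit over all strains. These 5 contrasts share the C57BL/6J mice. None of the 45 contrasts of the 9 genes passed an adjusted p of 0.05, whereas 6.88% of all genes did for DBA/2J, 8.01% for A/J, 6.79% for BALB/cJ, 7.59% for C3H/HeJ and 6.68% for KK/HlJ. At an unadjusted p under 0.05 there were 5 contrasts. The differences ran from -0.40 to 0.40 on the log2(FPKM + 1) scale, and their 95% intervals, with 3 mice a strain, were between 0.32 and 0.85 wide on that scale.

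Stat3 came closest to the threshold, with 17.3, 16.7 and 18.7 FPKM in A/J and 25.2, 20.3 and 21.5 FPKM in C57BL/6J. Its difference was -0.33 (95% interval -0.57 to -0.08, adjusted p = 0.0951), and without mice OB-547 and OB-422, which enter only the residual spread, its adjusted p was 0.0493. Foxo1 had 3.88, 4.09 and 3.56 FPKM in C3H/HeJ and 4.67, 5.19 and 4.77 FPKM in C57BL/6J, a difference of -0.28 (-0.49 to -0.07, adjusted p = 0.103). In A/J it was at 4.21, 4.04 and 3.68 FPKM, a difference of -0.24 (adjusted p = 0.181). Lepr was at 2.60, 2.64 and 2.13 FPKM in KK/HlJ and at 1.97, 0.950 and 2.06 FPKM in C57BL/6J, a difference of 0.40 (0.03 to 0.78, adjusted p = 0.233). Irs1 was at 3.70, 3.22 and 4.11 FPKM in KK/HlJ and at 3.20, 2.33 and 2.89 FPKM in C57BL/6J, a difference of 0.30 (adjusted p = 0.259). In A/J, Irs1 was at 3.99, 3.27 and 3.48 FPKM, a difference of 0.27 (-0.02 to 0.56, adjusted p = 0.301). Irs2 was 11.1, 10.8 and 9.58 FPKM in DBA/2J and 13.8, 14.4 and 14.1 FPKM in C57BL/6J, and differed by -0.40 (-0.82 to 0.03, adjusted p = 0.326). When the residual spread was taken from these 6 strains alone, Irs2 in DBA/2J (adjusted p = 0.0163) and Foxo1 in C3H/HeJ (adjusted p = 0.0483) passed.

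Covariation among the genes was examined over the 99 strain means of log2(FPKM + 1), for all 36 pairs, by Pearson's r and Spearman's rho with permutation tests and Benjamini-Hochberg adjustment over the 36 pairs. In 11 pairs both coefficients passed an adjusted p of 0.05, 10 of them positive. The smallest absolute r among these pairs was 0.259. Of all 99102100 pairs of genes in the table, 14.3% reached it by r alone, with no demand on rho. Irs2 and Stat3 (r = 0.304), Insr and Irs1 (r = 0.273) and Lepr and Irs1 (r = 0.268) also exceeded it but did not pass by rho. The median r of the 36 pairs was 0.191, against 0.006 over all pairs of genes.

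Igf1r and Irs2 stood apart from the other pairs, with r = 0.861 and rho = 0.836 (permutation p = 1e-05 for each, the smallest that the resamples can give, adjusted p = 0.00018). It was the single pair with an absolute r of at least 0.5, which 1.13% of all gene pairs had. With the 2 strains most distant from the median Igf1r level removed, r was 0.826, and it was 0.840 without mice OB-547 and OB-422. Within the strain sets, r was 0.845 in AXB/BXA, 0.792 in BXD, 0.971 in BXH, 0.976 in CXB and 0.871 in the inbred strains. Inside strains, where each mouse is taken relative to the average of its own strain, r was 0.847 over 279 mice and 0.745 without the outlying pair.

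**Figure D3:**
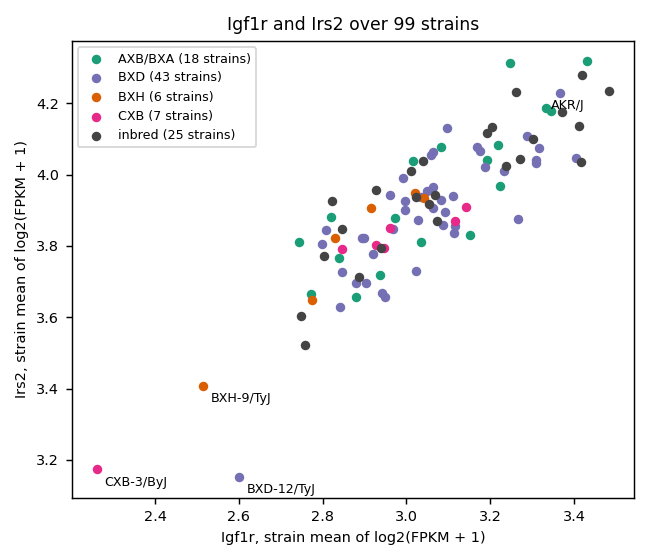
Strain means of log2(FPKM + 1) of Igf1r (x axis) and Irs2 (y axis), 1 point per strain, coloured by strain set. The points follow a single band with r = 0.861, and CXB-3/ByJ and BXD-12/TyJ, which hold mice OB-422 and OB-547, lie with BXH-9/TyJ at its low end.

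Both genes also correlated with a large part of the transcriptome. An absolute r of at least 0.5 over strain means was reached with 12.4% of all other genes for Irs2 and 9.56% for Igf1r, but with 1.71% for Irs1, 1.24% for Sh2b1 and less than that for the others, down to 0 for Lepr. Over strain means, the percentage of uniquely mapped reads correlated with Insr at r = 0.412, Irs2 at 0.391 and Igf1r at 0.255. By rank the order was reversed, with rho = 0.384 for Insr, 0.457 for Irs2 and 0.477 for Igf1r. On residuals after library size and that percentage, Igf1r and Irs2 had r = 0.849 and 9 of 36 pairs passed. Insr and Irs2 then had r = 0.143 (adjusted permutation p = 0.393, against r = 0.313 without that adjustment), and Lepr and Stat3 missed the threshold (r = 0.286, adjusted permutation p = 0.0527).

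The other pairs were weaker. Ptpn1 correlated with Irs2 (r = 0.498), Igf1r (r = 0.452) and Sh2b1 (r = 0.363), and Irs2 with Sh2b1 (r = 0.364). Irs1 correlated with Irs2 (r = 0.463) and Igf1r (r = 0.394), and Insr with Igf1r (r = 0.384) and Irs2 (r = 0.313). With quantile normalization both Insr pairs missed the threshold, with r = 0.232 for Igf1r (adjusted permutation p = 0.0695) and r = 0.178 for Irs2 (adjusted permutation p = 0.328). Lepr correlated with a single member past the threshold, Stat3 (r = 0.296, rho = 0.254, adjusted permutation p = 0.0101 and 0.0396). Insr and Sh2b1 were the 1 negative pair (r = -0.259, rho = -0.286, adjusted permutation p = 0.0257 and 0.0182), and it was r = -0.711 in the AXB/BXA strains, -0.262 in BXD and 0.381 in BXH. Without mice OB-547 and OB-422, 9 pairs passed and the pairs of Lepr with Stat3 (r = 0.241) and of Insr with Irs2 (r = 0.199) did not. Among mice relative to their strain average, without those mice, Insr and Sh2b1 had r = -0.393 and Insr and Igf1r r = 0.462, and Ptpn1 and Irs2 r = 0.259. Irs1 and Irs2 had r = 0.149 in that setting (adjusted permutation p = 0.184) and Lepr and Stat3 r = 0.125 (adjusted permutation p = 0.0614), and neither passed.

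**Figure D4:**
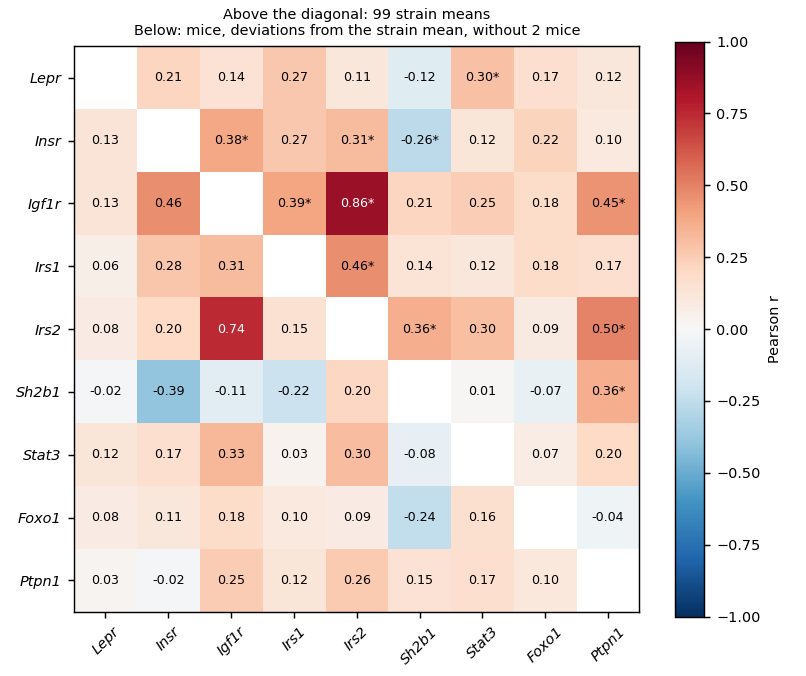
Pearson r for all pairs of the 9 genes, over 99 strain means above the diagonal (asterisks mark the 11 pairs past an adjusted p of 0.05 by both coefficients) and over mice as deviations from the strain mean, without mice OB-547 and OB-422, below it. Igf1r and Irs2 have the highest r in both triangles, 0.861 and 0.745.

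Markers of neighbouring tissue moved with some of the genes over strain means. The thalamus score, the mean log2(FPKM + 1) of its 5 genes, correlated with Sh2b1 at r = 0.462, with Ptpn1 at 0.339 and with Stat3 at -0.332. Foxo1 correlated with the pituitary score at r = 0.311 and with the choroid plexus score at 0.296, and Insr with the pituitary score at 0.302. Lepr correlated with the endothelial score at r = -0.302. The part of these tissues in the strain differences was tested only by the covariates that follow. On residuals after the choroid plexus, pituitary and thalamus scores, 17 of 36 pairs passed, and Igf1r and Irs2 had r = 0.865. All 9 genes but Ptpn1 passed the strain test with these scores as covariates.

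The genes whose strain means followed each member most closely are given as a description. So few were taken per member, out of all genes in the table, that pathway genes would seldom be among them in any case. Whether pathway genes were more or less frequent there than among all genes was not tested. For Igf1r the closest genes were Tnrc6b, a component of the microRNA silencing complex, with r = 0.868, Elfn2 (r = 0.864) and Irs2. For Irs2 they were Elfn2 (r = 0.898), the semaphorin receptor Plxna2 (r = 0.877) and Pip5k1c, a lipid kinase that makes PI(4,5)P2 (r = 0.870). The closest genes to Sh2b1 were the autophagy scramblase Atg9a (r = 0.728), Inpp5j (r = 0.680) and Atxn7l3 (r = 0.665), and to Irs1 the Hippo pathway kinase Lats1 (r = 0.646), Srrm2 and Arid1a. For Ptpn1 they were the kinase Brsk2 (r = 0.611), the pacemaker channel Hcn4 (r = 0.590) and Snrk (r = 0.568). Insr was followed by the taurine transporter Slc6a6 (r = 0.568), Bbx and Zdbf2, Foxo1 by Notch2 (r = 0.543), Fam214a and Ptpn13, and Stat3 by Zim1 (r = 0.511), Mllt4 and Kcnk9. Lepr had no close companion, with r = 0.440 for Taf1a, 0.439 for Cwf19l2 and 0.416 for Hcfc2. These are descriptions over 99 strain means that come from the same libraries.

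At the transcript level the 9 genes had 25 deposited transcripts, 14 known to GENCODE M2 and 11 unannotated isoforms of these genes. Of these, 9 passed the strain test, as did 46.8% of all transcripts, and the median strain share was 0.0727 against 0.116 over all transcripts. They were the single deposited transcripts of Lepr, Igf1r and Foxo1, the major transcripts of Irs1, Stat3 and Ptpn1, both transcripts of Irs2 and 1 minor transcript of Sh2b1. Isoform composition was tested on its own as the share of each transcript in the summed FPKM of the deposited transcripts of its gene. Only 2 of the 22 shares passed, both of them minor transcripts of Sh2b1 and Stat3 named below after their values were seen, against 37.5% of all shares tested. By the Kruskal-Wallis test neither passed (adjusted p = 0.162 and 0.445), and the 2 shares of Irs2 did (adjusted p = 0.00154), against 27.8% of all shares. Insr, Irs1, Irs2 and Ptpn1 each had 2 deposited transcripts, whose shares sum to 1, so each such pair is 1 test counted as 2. The median strain share of the 22 was 0.00737, against 0.0928 over all isoform shares.

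The single deposited Lepr transcript, TCONS_00237263, is the long form with 19 exons, the form able to signal through STAT3. It was at 0.768 ± 0.332 FPKM over 282 mice, from 0.000855 over a median of 0.811 to 1.58 FPKM. The remainder of the gene level, which no deposited transcript accounts for, was 0.875 ± 0.524 FPKM, from 0.0858 over 0.804 to 2.86 FPKM. The long form made up 49.0 ± 22.2% of the gene level and exceeded the remainder in 138 of 282 mice. Over strain means the long form and the remainder correlated negatively (r = -0.321, rho = -0.277, n = 99 strains, given as a description because both are parts of 1 estimate). The long form share missed the threshold of the strain comparison (strain share -0.0110, permutation test over mice, p = 0.562, adjusted p = 0.868 over 5 such measures). The level of the long form passed the strain test at an adjusted p of 0.0478 and missed it without mouse OB-547, at 0.0544, and in 6 other settings besides the loss of 1 mouse per strain, with an adjusted p of up to 0.108.

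Insr was carried by a full transcript of 21 exons that lacks the 36-nt exon, TCONS_00340948, at 7.16 ± 0.881 FPKM, from 0.763 over 7.24 to 9.34 FPKM. An unannotated transcript, TCONS_00340936, begins with the 36-nt exon printed above and was at 1.48 ± 0.435 FPKM. It was at 0 in 2 mice, had a median of 1.55 FPKM and reached 2.49 FPKM. It made up 16.8 ± 4.32% of the summed level, between 0% and 28.5%. Neither transcript (adjusted p = 0.426 and 0.596) nor their shares (adjusted p = 0.899) passed limma's strain test, whereas the full transcript passed by the Kruskal-Wallis test (adjusted p = 0.0453). Since this transcript also differs in its start and its 3' end, its share is no direct measure of exon inclusion.

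Sh2b1 had 9 deposited transcripts, and their 2 splice choices placed them in the 4 forms. Alpha, without the 100-nt exon and without the extension, held 33.9 ± 10.1% of the summed level, between 5.41% and 64.1% over mice. Delta, without the exon and with the extension, held 29.7 ± 10.7%, between 0% and 72.7%. Beta, with the exon alone, held 18.6 ± 8.74%, and gamma, with both, 17.8 ± 9.07%. The leading transcripts of the forms were TCONS_00324833 (alpha, 5.32 ± 2.01 FPKM), TCONS_00324835 (delta, 3.66 ± 2.202 FPKM), TCONS_00324843 (gamma, 3.32 ± 1.69 FPKM) and TCONS_00324832 (beta, 2.83 ± 1.74 FPKM). The 100-nt exon was thus in 36.4 ± 7.93% of the summed level, and the extension in 47.5 ± 11.99%. None of the 4 leading transcripts passed the strain test, by level or by share. Inclusion of the exon (strain share -0.0433, permutation p = 0.750) and of the extension (-0.0264, p = 0.660) missed the threshold too, with an adjusted p of 0.868 over the 5 measures for each. The gene level of Sh2b1 itself passed the strain test, as given above. The 1 Sh2b1 transcript that passed by level and share was TCONS_00324841 (2.96% of the summed mean, adjusted p = 0.0325 and 0.0360), with a value of 0 in 115 mice. By level it missed the threshold with a pseudocount of 0.1 (adjusted p = 0.0502) and by the Kruskal-Wallis test (0.122).

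Stat3 was carried by TCONS_00064962, the annotated transcript with the 3 added bases, at 15.6 ± 1.62 FPKM, from 10.4 over 15.5 to 21.6 FPKM, or 80.6% of the summed mean. It passed the strain test with a strain share of 0.315 (adjusted p = 8.5e-05). The annotated transcript without the 3 bases, TCONS_00064964, was at 1.55 ± 0.991 FPKM. The form with the added bases held 91.1 ± 5.36% of the sum of this pair, with 72.6% in the lowest mouse and 100% in 7 mice, and its strain comparison missed the threshold (strain share -0.00374, permutation p = 0.515, adjusted p = 0.868). This pair of transcripts also ends at different 3' positions, so the estimate does not rest on the 3 bases alone. The share of a short transcript, TCONS_00064969 (2.78% of the summed mean), passed with an adjusted p of 0.0275, and it was at 0 in 149 mice.

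**Figure D5:**
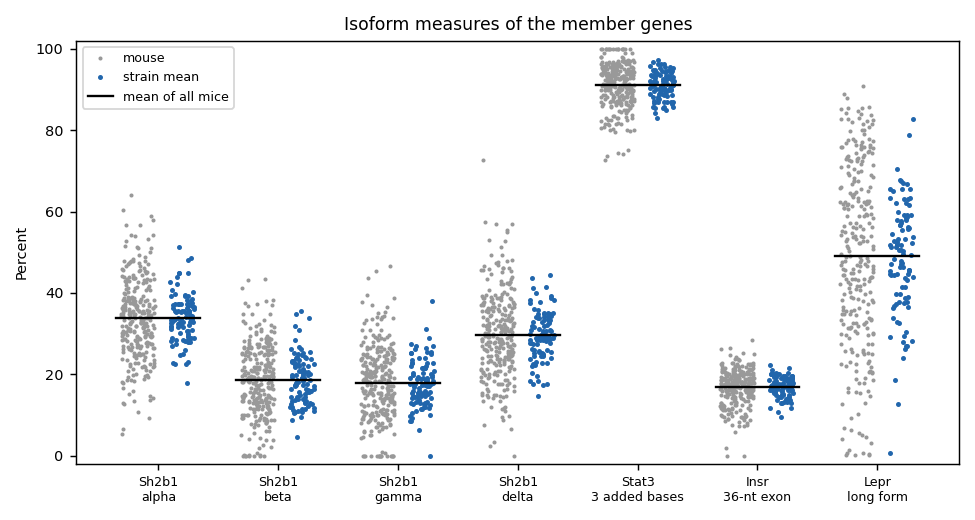
Percent of the summed level of deposited transcripts held by the 4 Sh2b1 forms, by the Stat3 transcript with the 3 added bases (of the pair that differs there) and by the Insr transcript that begins at the 36-nt exon, and percent of the gene level held by the long Lepr form. Grey points are mice, blue points strain means and black bars means of 282 mice. The Lepr long form spreads from 0.0563% to 91.0% over mice and from 0.569% to 82.7% over strain means.

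Irs1 and Irs2 each had a known transcript with most of the level and an unannotated one. For Irs1 the known TCONS_00019250 was at 2.24 ± 0.610 FPKM and passed the strain test (strain share 0.233, adjusted p = 0.000772, and 0.0622 with a pseudocount of 0.01), and TCONS_00019248, which starts at another exon and lacks the exon with the coding sequence, was at 0.567 ± 0.542 FPKM and did not (adjusted p = 0.117). For Irs2 the known TCONS_00341133 was at 11.8 ± 2.38 FPKM and the unannotated TCONS_00341132, a model of 32952 nt that extends upstream of it, at 2.45 ± 0.200 FPKM. Both passed by level (adjusted p = 0.0362 and 0.000923), but the known transcript missed the threshold with a pseudocount of 0.1 (adjusted p = 0.302) or 0.01 (0.548), with mapping covariates (0.0816) and with tissue markers (0.0626). Their shares did not pass over all mice (adjusted p = 0.526), but did without mouse OB-547, in which the known transcript was at 0 (adjusted p = 0.010), and without mice OB-547 and OB-422 (adjusted p = 0.00232). Ptpn1 had a full transcript, TCONS_00199932, at 4.53 ± 1.13 FPKM with a strain share of 0.323 (adjusted p = 3.55e-06), and a short one without coding sequence, TCONS_00199933, at 0.928 ± 1.24 FPKM and at 0 in 122 mice, which did not pass (adjusted p = 0.321). The Kruskal-Wallis test gave an adjusted p of 0.0918 for the full Ptpn1 transcript. The single deposited transcript of Igf1r was at 5.51 ± 1.33 FPKM, from 0.596 over 5.42 to 9.17 FPKM (adjusted p = 4.75e-05), and that of Foxo1 at 3.51 ± 0.850 FPKM, from 0.197 over 3.499 to 7.04 FPKM (adjusted p = 0.0298). The Foxo1 transcript missed the threshold with a pseudocount of 0.1 (adjusted p = 0.111) or 0.01 (0.151) and with tissue markers (0.0794). The deposited transcripts of Ptpn1 summed to 61.9% of the gene's mean level, those of Igf1r to 74.5% and those of Foxo1 to 74.2%.

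Around these genes, a list of 65 other genes of leptin, insulin and IGF signalling was followed in the same fit, of which 58 had a row. Of these, 48 passed the strain test (82.8%, against 75.4% of all genes), with a median strain share of 0.262. At 4 of the 58 the locus is joined to a neighbouring gene, so that the level is the sum. By role, Leprot and Leprotl1, which affect the surface display of the leptin receptor, all 8 ligands, receptors and binding proteins of the insulin and IGF system, all 8 adaptors and all 3 other FOXO genes passed. Among feedback inhibitors, 8 of 10 passed, in the JAK-STAT arm 5 of 6, among PI3K, PDK1 and AKT genes 7 of 9, and in the mTOR and AMPK arm 7 of 12.

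The largest strain shares of the list were those of Tsc2, Pik3r3 and Foxo3. Tsc2, an inhibitor of mTORC1, had 18.9 ± 1.65 FPKM, with a lowest, median and highest mouse of 14.05, 18.7 and 25.9 FPKM and strain means from 15.9 to 22.5 FPKM (strain share 0.602, adjusted p = 3.03e-20). Pik3r3, a regulatory subunit of PI3K, had 13.0 ± 1.52 FPKM, with 8.94, 13.0 and 17.8 FPKM and strain means from 9.92 to 16.8 FPKM (0.519, adjusted p = 2.17e-15). Foxo3, a relative of Foxo1, had 10.1 ± 0.922 FPKM, with 7.48, 10.1 and 13.4 FPKM and strain means from 8.59 to 12.4 FPKM (0.505, adjusted p = 4.32e-14). Each of these shares was above the largest of the 9 genes, 0.291 for Stat3, a comparison that was not tested.

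The smallest shares were those of Mtor, Rictor and Socs1. The kinase gene Mtor was at 19.9 ± 2.12 FPKM, with 8.69, 19.8 and 25.96 FPKM as lowest, median and highest (0.0202, adjusted p = 0.390). Its adjusted p was 0.0555 without mouse OB-547 and passed at 0.0399 without mice OB-547 and OB-422. Rictor, the mTORC2 subunit, was at 9.55 ± 0.871 FPKM (0.00766, adjusted p = 0.468), and passed at 0.0272 without both mice. Socs1, a feedback inhibitor of JAK kinases, was at 1.04 ± 0.436 FPKM (-0.00321, adjusted p = 0.502), with 0 FPKM in its lowest mouse. The others that did not pass were Akt1, Pdpk1, Jak1, Rps6kb1, Rheb, Socs7 and Gsk3b. Without mice OB-547 and OB-422, 55 of the 58 passed, as did 83.9% of all genes.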

How the data were processed

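One table held the deposited FPKM of genes and transcripts for 282 mice. The authors had aligned reads to mm10 with STAR 2.3.1, assembled them with Cufflinks 2.2.0, merged them with GENCODE M2 and scaled FPKM between mice with Cuffnorm 2.2.1. FPKM hold no counts, so the depth behind a value is unknown and no counting interval was computed. Mouse OB-627, labelled with 2 strains, entered only values over all mice. Strain tests used limma 3.58.1 in R 4.3.3 on log2(FPKM + 1) over all rows, with isoform shares tested where defined in at least 200 mice, and were tested on simulated data. Replicates are mice of 1 strain, so p-values of the strain tests measure the spread between mice. Those of correlations over strain means take strains as exchangeable units, although strains of 1 recombinant inbred set share their parents. Correlations used 100000 permutations in Python 3.11.15 (numpy 2.4.6, scipy 1.17.1). The 5 isoform measures were chosen after the transcripts had been seen and permuted strain labels over mice. The 9 genes, the pathway and marker lists and the tests were chosen with earlier results of these data known. Named were all 9 genes, the 3 closest genes each (mean FPKM of at least 1), transcripts with at least 10% of a gene's summed mean, the 3 highest and lowest strains with at least 2 mice, and the 3 largest and smallest pathway shares. Alternatives were other pseudocounts, filters, covariates, tests and left-out mice. Pathway genes without a row, such as Lep and Ins2, and the markers F5, Pou1f1, Col1a1, Col1a2, Lum and Sim1, were not analysed here.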

Additional observations from a re-analysis of the deposited data

How the results depend on the processing

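The number of the 9 genes past the strain test was between 7 and 9 under every alternative that kept all replicates, and between 0 and 6 when 1 mouse per strain was left out. Of all genes, 71.7% to 83.9% passed in the first case and 45.6% to 61.4% in the second. Member transcripts past it, 9 of 25, were 5 with a pseudocount of 0.1 and 4 with 0.01, and between 2 and 3 when 1 mouse per strain was left out. Of all transcripts, 43.9%, 41.7% and 24.4% to 33.0% passed in these settings. Isoform shares past it, 2 of 22, were 0 on the arcsine square root scale, 1 with known transcripts only, 4 without mouse OB-547 and 4 without mice OB-547 and OB-422, and between 1 and 5 with 1 mouse per strain left out. Of all shares, 40.4%, 25.8%, 39.5% and 40.3% passed in the first settings, in that order, and 18.9% to 25.8% in the last. Both counts of 4 include the 2 shares of Irs2, which are 1 test. Pathway genes past it were between 43 and 55 under the other alternatives and between 30 and 40 with 1 mouse per strain left out, to be read against the percentages of all genes above. Contrasts with C57BL/6J past the threshold were 2 of 45 with the spread of the 6 strains alone, 1 without mice OB-547 and OB-422, and 0 under each of the others. Correlated pairs, 11 of 36, were 21 over single mice, 22 over deviations from the strain mean, 17 over these without mice OB-547 and OB-422, and 17 on residuals after tissue markers. The counts over single mice and deviations took mice as units, although up to 3 share a strain and deviations sum to 0 within it. They are therefore not on the footing of the 11 pairs over strain means. They were 9 on the FPKM scale, with quantile normalization, on residuals after mapping covariates, without mouse OB-547 and without both mice. Within sets of fewer strains they were 2 in AXB/BXA, 3 in BXD, 0 in BXH, 0 in CXB and 2 in the inbred strains. Of the 11 pairs, Insr and Irs2 turned to r = -0.0544 in AXB/BXA, Insr and Sh2b1 to 0.381 in BXH, Irs2 and Sh2b1 to -0.0382 in BXH and -0.241 in CXB, and Sh2b1 and Ptpn1 to -0.377 in BXH. The cause of these changes was not tested. The settings that left out both mice, and residuals after mapping covariates, were chosen after seeing the data. No paired analysis was possible because the labels number mice, not replicates shared between strains. No depth is given by FPKM, so the precision of a single value could not be set.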
